A study of Mus musculus with 58 samples.

Results

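Beige and brown adipocytes of cold-exposed mice were compared directly: 4 cold beige libraries from inguinal white adipose tissue against 5 cold brown libraries from interscapular brown adipose tissue. The libraries are every mRNA library that the sample labels place in those 2 groups, which makes 9 of the 22 mRNA libraries and 9 of all 58 samples. All 11603 gene rows of the expression table were tested. The mice were C57BL/6J and carried the NuTRAP reporter, which puts a green fluorescent tag on the ribosomes and a label on the nuclei of cells in which Cre recombinase acts. The series names the lines Ucp1-NuTRAP and Adipoq-NuTRAP, so Cre was driven from the gene for uncoupling protein 1 or for adiponectin. Which line gave which library, and the age and sex of the mice, are not in the labels used here. A tag switched on by Ucp1-driven Cre stays on in a cell that later lowers Ucp1, and an Adipoq-driven tag marks every kind of adipocyte, which limits what each line can stand for. All mice ate chow, general housing was at 23 °C, and both cold groups spent 1 week at 4 °C. The warm brown and warm beige groups used for contrast (5 and 3 libraries) had the same cold week followed by 4 weeks at 30 °C. Warm white adipocytes (5 libraries), from mice born and kept at 30 °C, entered the fit only through its shared estimate of spread. Ribosome-bound RNA was pulled down with an antibody against the green tag (translating ribosome affinity purification, TRAP), so each value reflects RNA on tagged ribosomes. The labels call the libraries biological replicates without saying whether brown and beige fat came from the same mice, and p-values measure the spread between these libraries.

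Brown adipocytes sit in fixed depots, arise from cells related to muscle precursors and burn fuel for heat through Ucp1, which lets protons leak across the inner mitochondrial membrane. Beige adipocytes appear among white adipocytes, chiefly in the inguinal depot, when noradrenaline released in the cold acts on beta-adrenergic receptors and raises cyclic AMP. Both kinds hold many mitochondria and small lipid droplets and use a shared set of regulators (Pparg, Prdm16, Ebf2 and Ppargc1a), while developmental genes such as Zic1 and the Hox clusters record where in the body a depot formed. The comparison asks what still separates the 2 cell types when both are active in the cold.

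Values are log2 CPM (CPM, counts scaled to a common library total), given as deposited. A row was called when the Benjamini-Hochberg adjusted p of limma's moderated test, over all 11603 rows, was under 0.05. Values at or under -5 form the table's floor and mean that a gene is listed at its lowest level. Adipocyte genes were checked against the labels: Adipoq, Plin1 and Fabp4 lay far above the floor in all 9 libraries, and so did Ucp1. Correlations across rows were 0.98 to 0.99 between libraries of the same group and 0.899 to 0.92 between the groups. The depth of the libraries is unknown, since the table holds no counts. Cold brown libraries 1 and 5 stood apart by endothelial markers, whose summed level was 265 and 258 CPM there against 77.6 to 87.2 CPM in the other 3 brown libraries.

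Markers of other cell types were not absent from these pull-downs, and most were higher in cold beige. The 19 fibroblast and preadipocyte markers summed to 2020 to 2480 CPM in cold beige and 292 to 424 CPM in cold brown, and 17 of the 19 were called higher. The 9 macrophage markers summed to 56.3 to 94.6 CPM against 8.93 to 15 CPM, and all 9 were called higher (4 after quantile normalization). The 19 endothelial markers summed to 230 to 512 CPM against 77.6 to 265 CPM, ranges that overlap, and 15 were called higher. None of these markers was at the floor in every library of either group. The 13 skeletal muscle markers went the other way in sum, 29.4 to 82.5 CPM against 193 to 284 CPM, because of Mb (myoglobin, which brown adipocytes also make). Mb was at 7.65, 7.97, 7.59, 7.78 and 7.29 log2 CPM in cold brown libraries 1 to 5 and at 3.01, 4.90, 5.24 and 4.14 in cold beige libraries 1 to 4. Without Mb, 5 muscle markers were called higher in cold beige, among them Ttn and Tnnt3, though only 1 of the 13 with log2 of CPM plus 1 and none after quantile normalization. The precursor of ribosomal RNA, Rn45s, which the depletion of ribosomal RNA before library making should lower, took 0.436% to 1.15% of the summed values in cold beige and 0.0575% to 0.0994% in cold brown. The part of these signals in the gene results that follow was not tested. In bulk RNA of this kind, fewer cells of a type and less RNA per cell cannot be told apart.

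**Figure D1:**
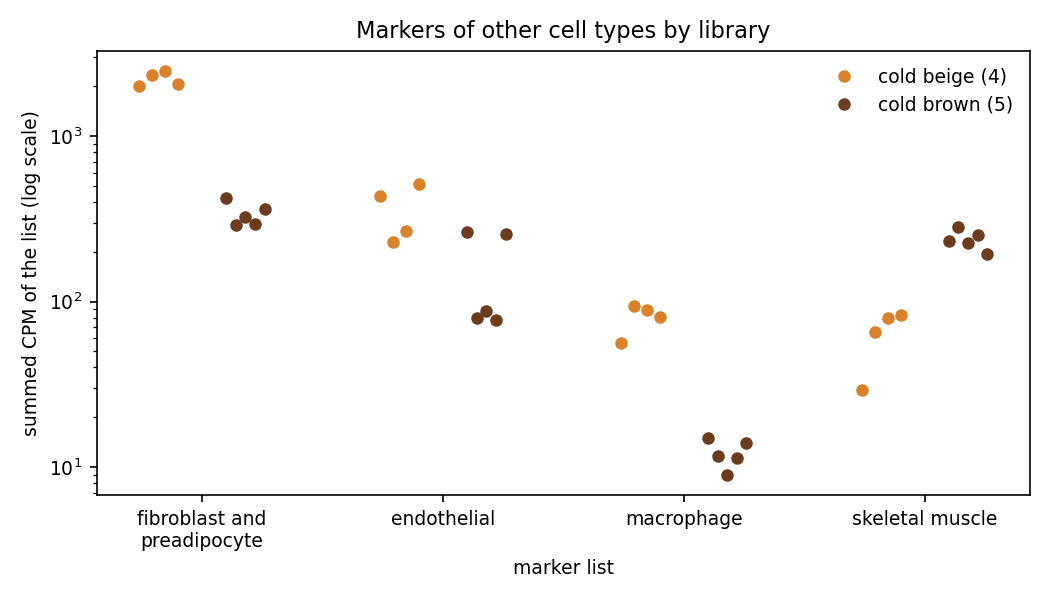
Summed level (CPM, log axis) of 4 lists of markers of other cell types, with 1 point per library for cold beige (4) and cold brown (5). The fibroblast and macrophage lists separate the groups, the endothelial points overlap because cold brown libraries 1 and 5 reach 265 and 258 CPM, and the muscle list is higher in brown through Mb.

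Cold beige and cold brown differed at most genes. Of the 11603 rows, 4024 (34.7%) were called higher in cold beige and 3160 (27.2%) lower, 61.9% in all. The counts of gene list members called in the cold are to be read against the shares of 34.7% and 27.2%. At 2-fold or more, 1792 rows (15.4%) were higher in beige and 355 (3.06%) lower as deposited, against 1028 and 839 after quantile normalization. At 8-fold or more, 460 rows were higher and 17 lower as deposited. The libraries of the 2 groups did not overlap for 3400 rows with beige higher (29.3%) and 2887 with beige lower (24.9%). The split of calls depended on scaling, since 56.0% of the calls were higher in beige as deposited. That share was 46.0% with quantile-normalized libraries, 46.5% with median-of-ratios factors and 62.2% when the 20 most abundant genes were kept out of the totals. The median difference over all rows was 0.05 log2 as deposited, -0.05 after median-of-ratios scaling and 0.10 with the 20 most abundant genes kept out. Small differences of either sign should therefore be read against shifts of that size.

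**Figure D2:**
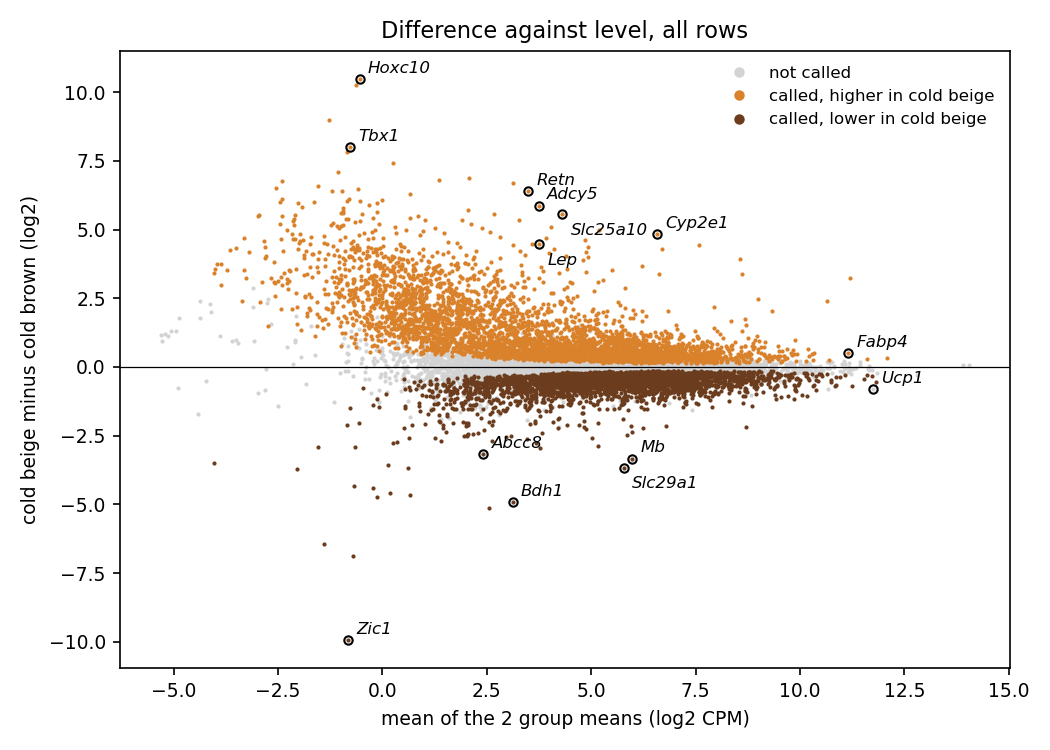
Difference between cold beige and cold brown (log2) against the mean level of the 2 groups (log2 CPM) for all rows, with called rows coloured by direction and some named genes ringed. Differences above 2.5 log2 are many at low and middle levels on the beige side and few on the brown side, and Ucp1 lies close to 0 at the right.

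Genes of the heat-producing programme itself were mostly close between the groups, with a small excess in brown. Ucp1 was at 12.43, 12.49, 11.92, 11.98 and 11.94 log2 CPM in cold brown and at 11.19, 11.16, 11.30 and 11.71 in cold beige. Every brown library lay above every beige library, and brown was 1.76-fold higher (12.15 ± 0.28 SD, n = 5, against 11.34 ± 0.25 SD, n = 4). Ucp1 took 0.371% to 0.531% of the summed values in cold brown and 0.214% to 0.34% in cold beige. Its difference of -0.81 (SE 0.52) had an adjusted p of 0.183 by limma over all 22 libraries, where the spread is shared with the warm groups. Fitted on the 9 cold libraries alone, the same difference had an adjusted p of 0.000674, and the exact two-sided permutation test over the 9 libraries gave 0.0159, the smallest p that 126 arrangements allow (0.0222 adjusted over the 7 genes tested so). That test shuffles the 9 libraries freely; the 4 pairs that share a library number could not give a p below 0.125.

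Several other genes of that programme showed small distances, though 3 of the 28 measured were called lower in beige by 2-fold or more. Cidea, a lipid droplet protein of brown fat, was 1.27-fold higher in brown (10.14, 10.27, 10.19 and 9.97 in beige, 10.53, 10.51, 10.47, 10.44 and 10.51 in brown), and Elovl3, which lengthens very long fatty acids, was 1.43-fold higher in brown (8.73, 9.07, 8.86 and 8.67 in beige, 9.19, 9.56, 9.41, 9.14 and 9.44 in brown). Neither was called with all 22 libraries (adjusted p 0.26 and 0.405), the groups of both did not overlap, and both were called from the 9 cold libraries alone (0.000922 and 0.000936). Dio2, which activates thyroid hormone, overlapped between the groups, with 9.11 to 9.85 in beige and 9.55 to 10.20 in brown (adjusted p 0.60). For Dio2, limma on the 9 cold libraries alone gave an adjusted p of 0.0465, and the exact permutation test gave 0.111. Ppargc1a, the coactivator of mitochondrial genes, was at 7.32, 7.52, 7.27 and 7.43 in beige and 7.32, 7.50, 7.86, 7.23 and 7.46 in brown, which overlap fully (difference -0.09, SE 0.13, adjusted p 0.57). Of the 28 thermogenic genes measured, 10 (35.7%, against 27.2% of all rows) were called lower in beige and 16 not called, with a median difference of -0.44. The 2 called higher (7.14%, against 34.7%) were Gk and Slc25a20, neither of them without cold beige library 1 or without cold brown libraries 1 and 5. Bmp8b, a secreted factor that sensitises brown fat to adrenergic drive, was 4.15-fold higher in brown (5.74 to 6.39 against 3.30 to 4.47; difference -2.05, SE 0.88, adjusted p 0.0483); it missed the threshold without any single library of the 9, at adjusted p of 0.055 to 0.126, and with the library number as a replicate block (0.0543). Ffar4 (a receptor for long-chain fatty acids) and Sik1 (a kinase induced by cyclic AMP) were 2.14-fold and 1.97-fold higher in brown. Cox7a1 and Cox8b, the respiratory subunits typical of brown fat, differed by -0.01 and 0.00. With the 9 cold libraries alone, 18 of the 28 were called lower, with 16 for log2 of CPM plus 1 and 6 within the first of the 2 batches of libraries described at the end.

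**Figure D3:**
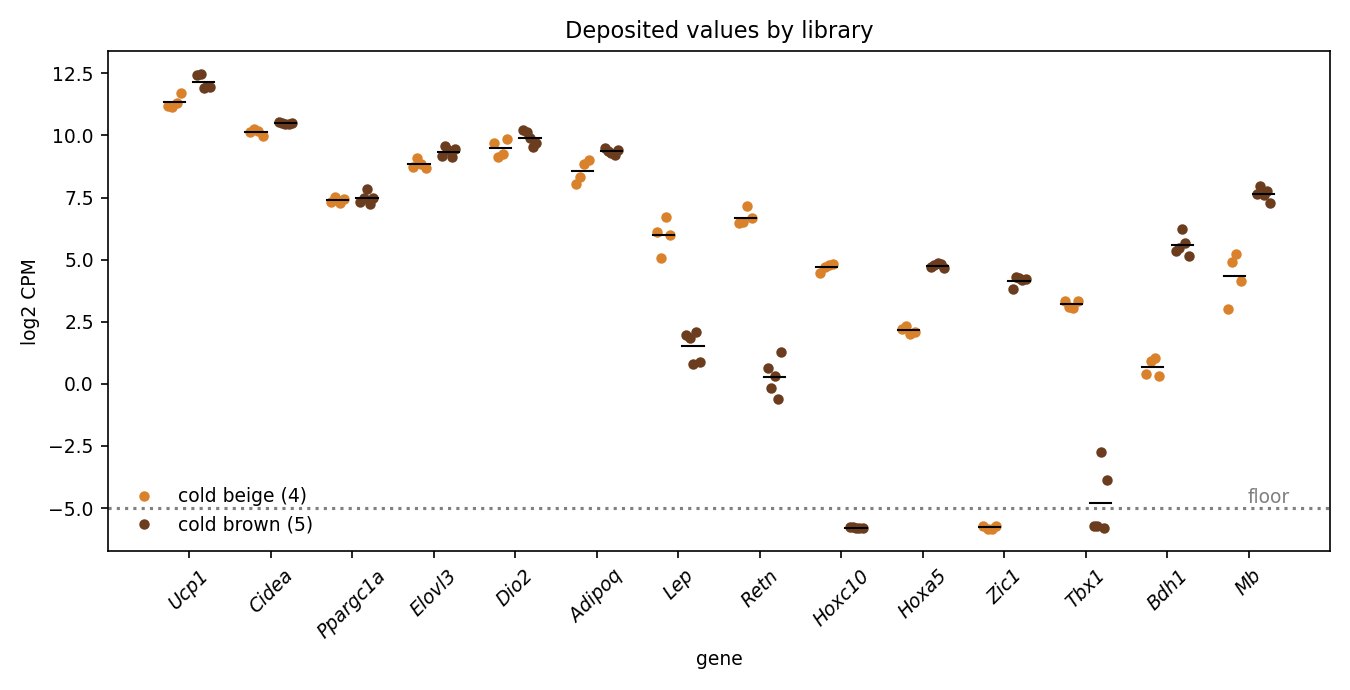
Deposited log2 CPM of 14 genes in each cold beige (4) and cold brown (5) library, with the group mean as a line and the floor dotted. The thermogenic genes at the left sit within 1 log2 of each other, whereas Lep, Retn, Hoxc10, Zic1, Tbx1 and Bdh1 lie 4 or more log2 apart.

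Several genes that mark body position were at the floor in 1 group. Zic1 (chr9:91358058-91365768 in GRCm38), a zinc-finger regulator of dorsal mesoderm, was at 3.80, 4.30, 4.25, 4.16 and 4.21 log2 CPM in cold brown and was listed at the floor in all 4 beige libraries. Hoxc10 (chr15:102966796-102971898) was the mirror image, at 4.47, 4.69, 4.80 and 4.82 in beige and at the floor in all 5 brown libraries. Hoxa10 (chr6:52231197-52240854) and Hoxc9 (chr15:102977032-102984444) were likewise at the floor in every brown library, at 4.22 to 4.64 and 3.06 to 3.49 in beige. No fold is given for these genes, since the floor is not a measured level. In all, 20 rows were at the floor in every brown library and 2 in every beige library.

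A Hox gene's number mirrors its place along its cluster and along the body axis. Of 20 Hox rows, 13 were called higher in beige and 5 lower, against 34.7% and 27.2% of all rows. The median difference was 0.87, but 0.53 and 0.32 with log2 of CPM plus 1 and plus 5 and 0.11 after quantile normalization, which called 8 lower. The 5 lower ones as deposited were Hoxa4, Hoxa5, Hoxc4, Hoxc5 and Hoxd8. In the A and C clusters the called genes numbered 5 or less were lower in beige and those numbered 6 or more were higher, whereas in the B and D clusters Hoxb3, Hoxb4 and Hoxd3 were higher and Hoxd8 was lower. With the library number as a replicate block, Hoxb3 was not called (adjusted p 0.0663). After quantile normalization Hoxb3 and Hoxb4 were not called and Hoxd3 was at -0.114, and Hoxa4 and Hoxb3 missed the threshold when single libraries, cold beige 2 among them, were left out. Hoxa5 (chr6:52201754-52204587) was at 4.72, 4.78, 4.85, 4.81 and 4.65 in brown against 2.22, 2.32, 2.02 and 2.08 in beige, 6.07-fold higher in brown with no overlap (difference -2.60, SE 0.19, adjusted p 1.45e-10). In the same cluster, Hoxa7 was 2.07-fold higher in beige, and Hoxa9 was 16.6-fold higher (3.88 to 4.36 against -1.01 to 0.75). In the C cluster, Hoxc4 and Hoxc5 were 2.04-fold and 1.92-fold higher in brown, Hoxc6 was 1.60-fold higher in beige, and Hoxc8 was at 4.61 to 5.08 in beige and -3.80 to 0.83 in brown. Hoxb6 and Hoxb7 were at 0.93 to 1.70 and 1.58 to 2.39 in beige and under 1 CPM in every brown library.

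Other positional regulators also divided the depots. Of 30 such rows, 17 (56.7%) were called higher in beige and 7 (23.3%) lower, with a median of 1.01; after quantile normalization 11 were lower and the median was 0.07. Shox2, a homeobox gene of limb and pharyngeal development, was at 5.80 to 6.03 in beige and -0.27 to 1.33 in brown, 40.2-fold higher in beige. Tbx1, Gata6, Emx2 and Twist2 were at 3.07 to 3.35, 2.63 to 3.05, 0.43 to 0.87 and 1.62 to 2.05 in beige and under 1 CPM in every brown library. Tbx15 and Tbx18, used as markers of subcutaneous fat, were 5.48-fold and 6.96-fold higher in beige. Lhx8, a LIM homeobox gene reported as a brown marker, was 2.91-fold higher in brown (difference -1.54, SE 0.17, adjusted p 1.3e-07).

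Genes reported in the literature as brown or beige markers mostly kept their side, apart from several that did not. Among 15 brown markers, 8 were called higher in brown and 3 higher in beige. Slc29a1, an equilibrative nucleoside transporter, was at 7.57, 7.46, 7.61, 7.81 and 7.62 in brown against 4.07, 3.91, 3.92 and 3.92 in beige, 12.6-fold higher in brown (difference -3.66, SE 0.23, adjusted p 1.11e-11). Ntrk3, Fbxo31 and Mpzl2 were 1.88-fold, 1.87-fold and 1.58-fold higher in brown. The 3 on the other side were Sncg (7.92-fold higher in beige, also a white marker), Acot2 (adjusted p 0.0502 without cold beige library 1) and Oplah. Among 14 beige markers, 9 were called higher in beige and 1, Eno1, lower. The count lower was 2 without cold beige library 4, and 3 in the 9 cold libraries alone or after median-of-ratios scaling. Besides Tbx1 and the Hox genes, Slc27a1 (a fatty acid transporter) was 3.34-fold higher in beige with values of 9.54 to 9.56 against 7.66 to 7.89, and Klhl13 was 3.38-fold higher. P2rx5 and Aqp7 differed by -0.12 and -0.22 and were not called. By limma, Aqp7 was called from the 9 cold libraries alone (adjusted p 0.0101) and without cold beige library 4 (0.0408).

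Regulators of adipocyte transcription were called higher at 26 of 82 rows (31.7%) and lower at 23 (28%), near the shares over all rows. Pparg, the nuclear receptor that defines adipocytes, was at 8.47, 8.44, 8.41, 8.37 and 8.46 in brown and 7.32, 7.35, 7.49 and 7.69 in beige, 1.96-fold higher in brown without overlap (difference -0.97, SE 0.14, adjusted p 3.27e-06). Ebf2, which directs Pparg to brown-fat genes, was 1.63-fold higher in brown, as was Irf4 (1.70-fold; adjusted p 0.074 without cold brown libraries 1 and 5), the partner of Ppargc1a in thermogenic transcription. Esrrb, an estrogen-related receptor, was 5.37-fold higher in brown. Prdm16, which holds brown and beige identity, did not separate the groups (difference 0.01). On the beige side, Tcf7l2, an effector of Wnt signalling, was 3.60-fold higher (3.97 to 4.31 against 2.02 to 2.46; difference 1.85, SE 0.13, adjusted p 6.02e-11). Nrip1, a corepressor that restrains oxidative genes, was 3.30-fold higher, Srebf1, the driver of lipid synthesis, 1.93-fold and Ppargc1b, a second mitochondrial coactivator, 1.54-fold higher in beige. Zfp521, an opponent of Ebf2 and of brown commitment, was at 1.52 to 2.38 in beige and under 1 CPM in every brown library.

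**Figure D4:**
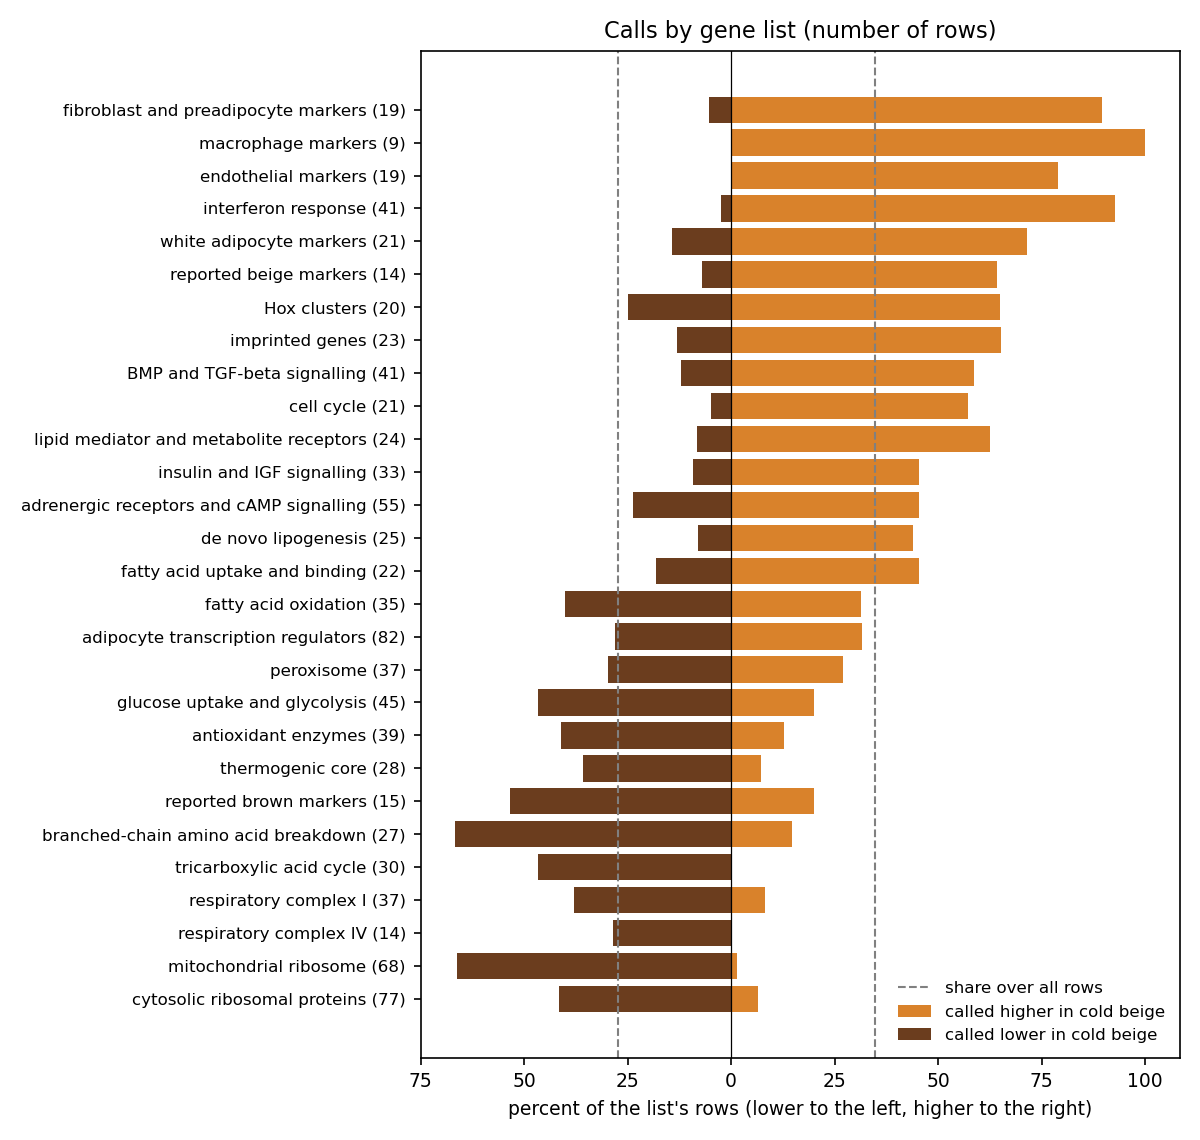
Share of each gene list's rows called higher (right) or lower (left) in cold beige, with the number of rows in brackets and the shares over all rows, 34.7% and 27.2%, dashed. Fibroblast, macrophage and endothelial markers, the interferon response and white adipocyte markers extend far to the right of the dashed line, while mitochondrial ribosome and branched-chain amino acid breakdown extend far to the left.

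Mitochondrial genes were lower in beige in some classes and close in others. Of the mitochondrial ribosome, which translates the few proteins encoded in mitochondrial DNA, 45 of 68 rows were called lower, against 27.2% of all rows, 1 (Mrpl27, not called without cold beige library 2 or 3 or without cold brown library 4) was higher, and the median was -0.38 against 0.05 over all rows. Mrpl39 was at 7.17 to 7.30 in brown and 5.91 to 6.39 in beige (2.16-fold), and Mrpl42 and Mrps36 were 2.34-fold and 2.41-fold higher in brown. Of 37 rows of complex I, 14 (37.8%) were called lower and 3 (8.11%) higher. Ndufv3 and Ndufb2 were 1.90-fold and 1.80-fold higher in brown, and Ndufa2 and Ndufa5 1.40-fold higher in beige. Without cold brown libraries 1 and 5 the count lower was 8, and without cold beige library 4 the count higher was 7. Of 14 rows of complex IV, 4 (28.6%, near the 27.2% of all rows) were lower, by 0.35 at most, and none was higher. Leaving out cold brown library 1, 2, 3 or 5 left 2 lower, and leaving out cold beige library 1 or 4 left 1. None was lower without cold brown libraries 1 and 5 or after quantile normalization. Uqcrc2 of complex III and Sdhb of complex II were 1.80-fold and 1.51-fold higher in brown. Of 15 ATP synthase rows, 3 were lower (20%, under the share over all rows), led by Atp5e (1.81-fold higher in brown) and Atp5o (1.61-fold). Pmpcb, which trims imported proteins, and the protease Clpp were 2.33-fold and 2.00-fold higher in brown, while 18 of 32 rows for import and chaperones were not called.

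Fuel oxidation in the mitochondrion leaned towards brown. Of 30 rows of the tricarboxylic acid cycle, 14 were called lower in beige and none higher. Idh3g, a subunit of the rate-setting isocitrate dehydrogenase, was at 9.94 to 10.10 in brown and 8.37 to 9.24 in beige, 2.26-fold higher in brown (adjusted p 2e-07), and Fh1 and Suclg1 were 1.87-fold and 1.62-fold higher. Breakdown of branched-chain amino acids, a fuel that brown fat clears from blood, was lower in beige at 18 of 27 rows and higher at 4. Bckdha, of the committing dehydrogenase, and Slc25a44, the mitochondrial carrier for these amino acids, were each 1.68-fold higher in brown, and Acad8 was 1.76-fold higher. Among the 4 higher in beige was Bcat1, the cytosolic aminotransferase (3.11-fold; difference 0.019 and not called after quantile normalization).

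Of 35 rows of fatty acid oxidation, 14 (40.0%) were called lower in beige and 11 (31.4%) higher, against 27.2% and 34.7% of all rows. The 2 forms of the gate enzyme carnitine palmitoyltransferase went opposite ways. Cpt1b, the muscle and brown-fat form, was at 10.28, 10.27, 10.23, 10.25 and 10.29 in brown and 9.41, 9.58, 9.78 and 9.98 in beige, 1.49-fold higher in brown without overlap (adjusted p 0.017; 0.0644 without cold beige library 1 and 0.0516 without cold brown libraries 1 and 5). Cpt1a, the form of liver and other tissues, was at 4.80, 4.71, 5.17 and 5.07 in beige and 3.69, 3.54, 4.45, 3.91 and 3.59 in brown, 2.15-fold higher in beige without overlap (adjusted p 2.86e-06). Eci1 and Acsl5 were 1.99-fold and 2.11-fold higher in brown. The peroxisomal enzymes Acaa1b and Ehhadh were 2.11-fold and 1.47-fold higher in beige (Ehhadh with adjusted p 0.101 without cold brown libraries 1 and 5), and Abcd2, which imports very long fatty acids into peroxisomes, was 10.4-fold higher in beige (7.94 to 8.59 against 4.77 to 5.28).

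Bdh1 (chr16:31422297-31458901), which interconverts the 2 main ketone bodies, was at 5.35, 5.47, 6.25, 5.67 and 5.16 in brown and 0.39, 0.91, 1.05 and 0.30 in beige. The groups did not overlap, and brown was 30.2-fold higher (difference -4.92, SE 0.59, adjusted p 2.92e-07). After warming, the beige-minus-brown difference was -4.72, and the change between cold and warm was not called (adjusted p 0.87).

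Glucose handling followed the step. Of 45 rows for uptake and glycolysis, 21 were called lower in beige and 9 higher, with a median of -0.28. Slc2a4, the insulin-responsive glucose transporter, was 1.61-fold higher in brown, Aldoa 1.63-fold and Pkm 1.45-fold. Gapdh was 3.01-fold higher in brown, a value that is uncertain because this gene has many near-identical pseudogenes and the handling of reads shared between copies is not given in the sources used here. Among the hexokinases, Hk3 was at 0.55 to 1.58 in beige and under 1 CPM in every brown library, while Hk2, the main form of muscle and fat, differed by 0.12 and was not called.

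Alternative routes of heat production also differed in detail. Ckb, the creatine kinase of the creatine cycle in thermogenic fat, was at 7.93, 7.71, 8.16, 8.09 and 7.58 in brown and 6.28, 6.61, 7.00 and 6.51 in beige, 2.45-fold higher in brown (difference -1.29, SE 0.19, adjusted p 5.81e-06). Alpl, the phosphatase that splits phosphocreatine, was 4.42-fold higher in brown (6.75 to 7.44 against 4.54 to 5.24), and the creatine transporter Slc6a8 1.33-fold. Of the calcium-cycling genes, Atp2a2, the main calcium pump, was not called (difference -0.07), and Atp2a1, Ryr1 and Itpr3 were higher in beige, Ryr1 not with log2 of CPM plus 1 (adjusted p 0.477). Ryr1 was at -1.54 to 0.33 in beige, with its highest value in cold beige library 4, and at the floor in every brown library; the muscle marker Tnnt3 was also at the floor in every brown library and was highest in cold beige library 4, at 1.23.

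Of 25 rows of de novo lipogenesis, 11 (44.0%, against 34.7% of all rows) were called higher in beige and 2 lower (4 in the cold libraries alone). Of 18 rows of triglyceride synthesis, 4 (22.2%) were higher and 5 (27.8%) lower (2 and 8 after median-of-ratios scaling). The core enzymes Fasn, Acly and Acaca differed by 0.08, -0.03 and -0.03 and were not called. The differences lay in desaturases and suppliers: Scd2 was 4.12-fold higher in beige (9.77 to 10.79 against 7.50 to 9.12), Fads3 and Fads1 7.46-fold and 4.66-fold, and Me1, which supplies reducing power, 1.98-fold. Elovl6 and Elovl5 were 1.37-fold and 1.60-fold higher in brown. Agpat9, of the glycerolipid pathway, was 4.76-fold higher in beige, and Agpat1 and Agpat2 were 1.67-fold and 1.57-fold higher in brown. Of 24 rows of lipolysis and lipid droplets, 7 (29.2%) were higher and 6 (25%) lower, near the shares over all rows. The lipases Pnpla2, Lipe and Mgll differed by -0.19, 0.00 and -0.06, none called. Abhd5, the coactivator of Pnpla2, was 1.52-fold higher in brown, and its counterpart G0s2, the inhibitor of Pnpla2, was 2.09-fold higher in beige, with overlapping values (7.74 to 8.26 against 6.20 to 7.92).

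The largest carrier difference was Slc25a10, which exchanges dicarboxylates across the inner mitochondrial membrane. It was at 6.79, 6.98, 7.58 and 7.01 in beige and 2.04, 1.74, 1.15, 0.93 and 1.77 in brown, 47.3-fold higher in beige (difference 5.56, SE 0.22, adjusted p 7.04e-15). Of 37 mitochondrial carrier rows, 9 were called higher and 11 lower, close to the shares over all rows. Trf, the iron carrier transferrin, was 31.6-fold higher in beige (7.35 to 7.95 against 1.86 to 3.64).

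Adrb3, the beta-3 receptor of adipocytes, was at 8.78, 8.89, 8.73 and 8.70 in beige and 8.50, 7.97, 8.33, 8.55 and 8.31 in brown, 1.36-fold higher in beige without overlap but not called over all 22 libraries (difference 0.44, SE 0.21, adjusted p 0.0726). Adrb1, the beta-1 receptor, was lower in beige without overlap (5.13 to 5.66 against 5.84 to 6.26; difference -0.53, SE 0.26) and not called either (0.0822). Fitted on the 9 cold libraries alone, both were called, at adjusted p of 0.00275 for Adrb3 and 0.00201 for Adrb1, as they were with library weights (0.0246 and 0.00305). Adenylyl cyclases, which make cyclic AMP, were of different kinds. Adcy5 was at 6.42, 6.31, 7.29 and 6.69 in beige and 1.32, 0.91, 0.60, 0.18 and 1.05 in brown, 58.3-fold higher in beige (difference 5.87, SE 0.20, adjusted p 4.21e-16). Adcy3 was at 10.42, 10.42, 10.44, 10.17 and 10.33 in brown and 9.41, 9.55, 9.53 and 9.43 in beige, 1.84-fold higher in brown (difference -0.88, SE 0.11, adjusted p 4.16e-07). Neither pair of groups overlapped. Prkaca, the catalytic subunit of protein kinase A, was 1.27-fold higher in beige, and the phosphodiesterase Pde3a, which degrades cyclic AMP, was 1.96-fold higher in brown. Of 55 rows in the adrenergic and cyclic AMP list, 25 (45.5%, against 34.7% of all rows) were higher and 13 (23.6%, against 27.2%) lower.

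Of 33 rows for insulin and growth factor signalling, 15 (45.5%, against 34.7% of all rows) were called higher in beige and 3 lower. The count lower was 1 without cold beige library 3 or cold brown library 3 and 5 in the 9 cold libraries alone. Igf1 was at 4.73, 5.07, 6.19 and 5.81 in beige and 1.79, 1.31, 1.23, 0.75 and 1.82 in brown, 16.8-fold higher in beige (difference 4.07, SE 0.24, adjusted p 6.86e-12). Igfbp4, which binds Igf1, was 14.9-fold higher, the adaptor Grb10 6.03-fold, Irs1 2.12-fold and the insulin receptor Insr 1.21-fold, whereas Akt2 was 1.32-fold higher in brown. Igf1 and Igfbp4 are also made by fibroblasts, whose markers were higher in the same libraries at the summed levels given above.

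Receptors for metabolites and lipid mediators were higher in beige at 15 of 24 rows (62.5%) and lower at 2 (8.33%). The count lower was 1 without cold beige library 4 or without cold brown libraries 1 and 5. Hcar1, the lactate receptor, was 10.7-fold higher in beige (5.46 to 6.56 against 1.69 to 3.05), Hcar2, the receptor for beta-hydroxybutyrate and niacin, 12.5-fold (3.19 to 4.13 against -0.53 to 0.58), and Ptger3, a receptor for prostaglandin E2, 3.63-fold. Ffar2, a receptor for short-chain fatty acids, was at 4.57 to 5.17 in beige and under 1 CPM in every brown library. The ATP-sensitive potassium channel, by contrast, was a brown feature: its pore subunit Kcnj11 was 4.29-fold higher in brown (5.27 to 5.74 against 3.21 to 3.54), and its regulatory subunit Abcc8, among the largest differences on the brown side, 9.07-fold (3.51 to 4.41 against 0.40 to 1.30; adjusted p 3.46e-05). Ano1, a calcium-activated chloride channel, was 5.19-fold higher in brown. Among 41 rows of BMP and TGF-beta signalling, 24 were higher in beige and 5 lower (2 without cold beige library 2, and 3 without cold beige library 1 or 4 or cold brown library 2 or 4), with the activin subunit Inhbb at 1.72 to 3.34 in beige and under 1 CPM in every brown library.

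Markers of white adipocytes were high in cold beige. Of 21 such rows, 15 were called higher and 3 lower, with a median of 3.10. Lep, the satiety hormone leptin, was at 6.12, 5.08, 6.72 and 5.98 in beige and 1.98, 1.83, 0.80, 2.08 and 0.90 in brown, higher in beige without overlap (5.98 ± 0.68 SD, n = 4, against 1.52 ± 0.62 SD, n = 5; difference 4.46, SE 0.35, adjusted p 6e-10). Retn, the adipokine resistin, was at 6.47, 6.50, 7.14 and 6.67 in beige and 0.62, -0.17, 0.31, -0.62 and 1.29 in brown, 85.0-fold higher in beige (difference 6.41, SE 0.27, adjusted p 2.51e-14) and the largest of the differences with both group means at 1 CPM or more. Cyp2e1, Dpt and Ccdc80 were 28.3-fold, 25.6-fold and 8.56-fold higher in beige. Fibroblast and preadipocyte markers were higher in the same libraries, at the summed levels given above, and their part in these differences was not tested. Adipoq, which all adipocytes secrete, went the other way, at 9.48, 9.39, 9.28, 9.23 and 9.41 in brown and 8.06, 8.32, 8.86 and 8.99 in beige, 1.74-fold higher in brown without overlap (difference -0.80, SE 0.15, adjusted p 6.46e-05). Of 20 general adipocyte genes, 7 (35%, near the share over all rows) were called higher in beige and 4 (20%) lower (7 after median-of-ratios scaling). Plin1, Cidec and Cebpa differed by -0.10, 0.06 and 0.21 and were not called, while Car3 and Cfd were 15.3-fold and 5.61-fold higher in beige. Ptgds (prostaglandin D synthase) and Ephx1 were 5.36-fold and 3.46-fold higher in brown, and Nampt 1.54-fold.

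The interferon response was higher in beige almost throughout. Of 41 rows, 38 were called higher, 1 (Ifi27) lower and 2 not called (Gbp6 and Ddx58), with a median of 1.72. That median was 1.28 and 0.79 with log2 of CPM plus 1 and plus 5, and 1.2 after quantile normalization, which called 2 lower. The genes are switched on by interferons through Stat2, Irf9 and their partners at the interferon-stimulated response element (ISRE), or at the gamma-activated site (GAS). These promoters are shown because nearly all genes of the list were higher in the same group. Promoter sequences (250 bases before to 50 after the start, RefSeq, GRCm38.p6) were found for 30 of the 40 symbols. The letters of the ISRE (GAAA, any 2 bases, GAAAC) were searched on both strands, with overlapping matches kept, and were present for 11 of the 30, against 79 of 8620 measured genes with a promoter (0.916%) and 0.819% of all promoters. Of 2896 genes called higher in beige, 40 held it (1.38%; 33 of the 1216 at least 2-fold higher, 2.71%), against 19 of 2409 called lower (0.789%) and 20 of 3315 not called (0.603%). The letters TTCNNNGAA of the GAS were present for 7 of the 30 and in 8.3% of all promoters. A match describes the sequence only. Among the 11 genes with the ISRE letters was Ddx58, which was not called (difference -0.015, adjusted p 0.92 by limma). Gbp3 and Irf1 had 2 promoter entries each, and only the 1 printed below held the match. Capitals mark the ISRE match on the reverse strand in the first 3 promoters (which reads GTTTC, any 2 bases, TTTC as printed; in Gbp3, 2 overlapping matches) and the GAS match in Irf1.
Gbp3, chr3:142559794-142560093, + strand: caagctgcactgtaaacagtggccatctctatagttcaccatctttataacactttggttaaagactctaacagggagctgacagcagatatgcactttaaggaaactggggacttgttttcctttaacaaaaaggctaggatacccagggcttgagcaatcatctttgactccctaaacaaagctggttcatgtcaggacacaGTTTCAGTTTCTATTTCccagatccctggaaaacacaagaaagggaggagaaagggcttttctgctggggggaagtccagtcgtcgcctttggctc
Stat2, chr10:128270248-128270547, + strand: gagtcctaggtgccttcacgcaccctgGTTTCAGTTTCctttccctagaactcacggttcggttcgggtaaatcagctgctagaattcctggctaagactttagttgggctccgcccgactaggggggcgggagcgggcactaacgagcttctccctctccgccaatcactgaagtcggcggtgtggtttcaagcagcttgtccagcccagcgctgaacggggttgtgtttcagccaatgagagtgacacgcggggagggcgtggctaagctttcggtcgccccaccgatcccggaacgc
Ifit3, chr19:34583279-34583578, + strand: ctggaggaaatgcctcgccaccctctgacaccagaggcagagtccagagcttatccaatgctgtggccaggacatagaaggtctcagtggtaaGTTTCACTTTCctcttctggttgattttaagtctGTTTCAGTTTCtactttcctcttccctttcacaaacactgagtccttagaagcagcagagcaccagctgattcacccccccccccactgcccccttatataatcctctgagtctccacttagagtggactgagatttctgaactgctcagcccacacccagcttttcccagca
Irf1, chr11:53769764-53770063, + strand: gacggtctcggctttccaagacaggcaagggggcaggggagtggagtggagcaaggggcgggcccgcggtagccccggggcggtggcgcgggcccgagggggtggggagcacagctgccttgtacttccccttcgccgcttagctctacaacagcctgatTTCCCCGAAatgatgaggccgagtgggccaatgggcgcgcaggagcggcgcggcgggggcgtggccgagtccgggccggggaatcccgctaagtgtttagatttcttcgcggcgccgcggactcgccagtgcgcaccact

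The genes behind these promoters separated the groups. Gbp3, an interferon-induced GTPase, was at 5.00, 5.32, 4.84 and 5.04 in beige and 2.94, 2.73, 2.71, 3.16 and 2.93 in brown, 4.46-fold higher in beige (difference 2.16, SE 0.13, adjusted p 1.24e-11). Stat2 was at 3.24, 3.85, 3.81 and 3.64 in beige and 2.02, 1.87, 1.27, 1.59 and 1.79 in brown (3.80-fold, adjusted p 1.41e-09), and Irf1, an interferon-induced regulator, at 4.51 to 4.69 against 1.33 to 2.56 (5.80-fold, adjusted p 1.64e-10). Ifit3, an antiviral effector, was at 0.91, 0.01, 0.32 and 1.03 in beige and under 1 CPM in every brown library. After quantile normalization Ifit3 was not called by limma (adjusted p 0.0797). H2-D1, a class I antigen-presenting molecule, was 4.54-fold higher (8.90 to 9.24 against 6.57 to 7.05), and Psmb8 and Psmb9, of the immunoproteasome, 9.30-fold and 10.8-fold. All 9 macrophage markers were also called higher in beige (Csf1r 10.3-fold, Mrc1 9.29-fold), at the summed levels given above; their part in the interferon result was not tested.

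Of 21 cell cycle rows, 12 were called higher in beige (6 after quantile normalization) and 1 (Pcna) lower. Ccnd2, a D-type cyclin, was 15.8-fold higher (6.71 to 7.19 against 2.60 to 3.07), and Mki67 was 6.79-fold higher (2.31 to 2.67 against -0.65 to 0.30); Top2a was at 1.83 to 2.30 in beige and under 1 CPM in every brown library. Of 77 cytosolic ribosomal protein rows, 32 were lower in beige and 5 higher (3 without cold beige library 2), values that are uncertain for this family because its genes have many processed pseudogenes. Of 39 antioxidant rows, 16 were lower and 5 higher. Gpx3, the secreted glutathione peroxidase, was 2.68-fold higher in brown (9.24 to 9.71 against 8.00 to 8.46), and the heme-degrading Hmox1 2.18-fold, while Gsta3 was 18.8-fold higher in beige (3.95 to 4.63 against -0.25 to 0.47). Of 23 imprinted rows, 15 were higher in beige and 3 lower, with Meg3 18.4-fold higher in beige and Ndn 1.53-fold higher in brown.

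The largest differences named further genes of each group of libraries. Higher in beige, with both groups at a mean of 1 CPM or more and no overlap, were also the calcium exporter Atp2b4 (34.0-fold), the sulfotransferase Chst1 (30.4-fold), the collagen gene Col1a1 (24.7-fold) and the protease Adamts12 (a difference of 4.46 log2). Col1a1 is itself a fibroblast marker, and the part of fibroblasts and preadipocytes in the differences on the beige side was not tested. Higher in brown were the GTPase Rragd (7.68-fold), the GDNF receptor Gfra1 (7.40-fold), the Notch target Heyl (6.77-fold), Praf2 (6.52-fold), the methyltransferase Gnmt (6.43-fold), the laminin gene Lamc3 (6.06-fold) and Xk (5.86-fold). Under 1 CPM in every brown library and called higher in beige were 542 rows, and under 1 CPM in every beige library and called lower were 24. The growth factor gene Fgf10, which supports preadipocytes, was at 5.35 to 5.67 in beige, and Adam33, Snhg11 and Fam83a were at 2.33 to 3.64, 3.79 to 4.09 and 1.88 to 3.43. On the brown side, Gldn was at 1.78 to 3.74, Foxp2 at 1.57 to 2.16, Lancl3 at 1.59 to 2.85, Tmem28 at 2.44 to 3.26, Vil1 at 1.58 to 3.16, Elfn1 at 0.70 to 3.30 and Rragb at 1.05 to 1.82.

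Whether the cold difference was also present after warming was asked of the warm libraries, which share no sample with the cold contrast. After 4 weeks at 30 °C, 4100 rows (35.3%) were called higher in warm beige than in warm brown and 4658 (40.1%) lower. Of the 7184 cold calls, 5322 (74.1%) were called in the same direction when warm, 519 in the opposite direction and 1343 were not called. Of the 2147 calls of at least 2-fold, 1841 (85.7%) kept their direction, 47 turned and 259 were not called. Across rows, the 2 differences correlated at r = 0.764 and rho = 0.733, a description over genes, which are not independent. A test of the change itself, the cold difference minus the warm difference, called 5477 rows (47.2%), of which 3765 (32.4%) were positive, meaning that beige stood higher relative to brown in the cold than when warm, and 1712 (14.8%) negative.

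The warm differences of Hoxa5, Retn and Slc29a1 were -2.62, 6.13 and -3.32, against -2.60, 6.41 and -3.66 in the cold, and their change was not called (adjusted p 0.956, 0.599 and 0.429). The median of the 28 thermogenic rows was -0.44 in the cold and -2.94 when warm. Of the 28, 24 were called lower in warm beige, against 40.1% of all rows. Ucp1 was 0.38 to 1.53 in warm beige and 8.37 to 9.20 in warm brown, a warm difference of -7.82, and its change of 7.00 (SE 0.77, adjusted p 1.59e-07) was the largest among rows with all 4 group means at 1 CPM or more. Complex I had a median of -0.15 in the cold and -1.40 when warm. The change was called positive for 32 of its 37 rows, against 32.4% of all rows. For complex IV the medians were -0.01 and -1.73, and for the mitochondrial ribosome -0.38 and -1.05. The white markers had medians of 3.10 and 3.30. Their change was called for 11 of the 21, positive for 6 and negative for 5, against 47.2%, 32.4% and 14.8% of all rows. Perm1 (a regulator of mitochondrial genes in muscle), Fabp3 (a fatty acid carrier), Pkia (an inhibitor of protein kinase A), Acot11 (a thioesterase of brown fat) and Col12a1 changed by 5.97, 5.69, 5.28, 5.05 and 5.05. In the other direction, Hopx, Adgrg2, Mt2, Wscd2, Lamc3 and Fkbp5 changed by -4.08, -4.07, -3.60, -3.48, -2.87 and -2.79: Hopx, Adgrg2 and Mt2 were called higher in brown in the cold and higher in beige when warm, Mt2 with overlapping cold libraries and an adjusted cold p of 0.0565 and 0.0598 without cold beige library 3 or 4. Adcy5 and Lep stood higher in beige at both temperatures, by 5.87 and 4.46 in the cold and 2.27 and 1.51 when warm.

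**Figure D5:**
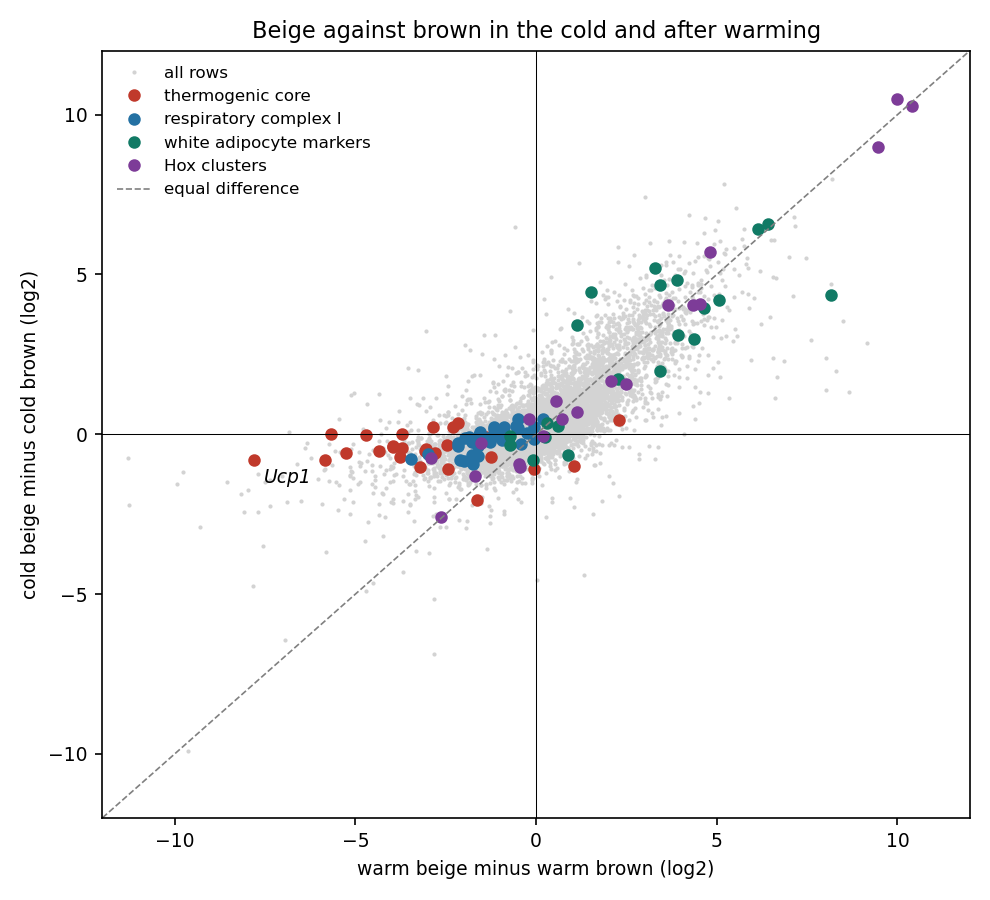
Cold difference (vertical) against warm difference (horizontal) between beige and brown for every row (log2), with 4 gene lists coloured and the line of equal differences dashed. Most Hox genes lie near the line and white markers scatter to either side of it. Most thermogenic and complex I genes lie to the left of 0 and above the line. Their medians were -0.44 and -0.15 in the cold and -2.94 and -1.40 when warm, with Ucp1 at -0.81 and -7.82.

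The libraries fell into 2 batches, read from the values of rows at the floor, since the labels name none. The first held cold brown 1 and 2 with cold beige 1 and 4, the second cold brown 3, 4 and 5 with cold beige 2 and 3. Batches of the 2 depots were joined in the way that left the smaller batch coefficients. The largest over all rows was then 0.005 log2, against 1.897 joined the other way. The deposited values thus hold almost no shift between these batches, and adding a batch term could change little. The 17 residual degrees of freedom make no allowance for any earlier removal of such a shift. Fitted within a batch, 3710 rows were called in the first and 6034 in the second, and no row called in both that fit and the full one changed direction in either. Of the 7184 calls, 99.92% had the same sign within the first batch and 100% within the second. The calls came from a fit that holds these same libraries. Their agreement within a batch was therefore nearly fixed in advance and is not a replication.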

How the data were processed

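Messenger RNA bound to tagged ribosomes was measured by RNA sequencing. The authors deposited normalized log2 CPM values, 1 column per library, made with HISAT2, Picard, featureCounts and edgeR on mm10, per the submitters' processing notes, whose versions are not given in the sources used here. Counts were not analysed here, so the depth, and the precision it gives, is unknown. The antilogs of a library summed to 0.9865 to 1.104 of the nominal total in the 9 cold libraries.

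Libraries were grouped by label. limma 3.58.1 in R 4.3.3 was fitted with trend to all 11603 rows of all 22 libraries (5 group means, 17 residual degrees of freedom), so that the groups shared 1 estimate of spread, with Benjamini-Hochberg adjustment over all rows and no filter. Folds are antilogs of differences of mean log2 CPM, and none is given where every library of a group lay under 1 CPM. The cold and warm contrasts share no library. On simulated data with 11603 genes, 53% of 100 changes of 0.5 log2 and 70% of 100 changes of 1 log2 were called for cold beige against cold brown, all with the right sign. Of the 131 calls made there, 8 were of unchanged genes. No other genes were changed, whereas 61.9% of rows were called in the data. The adjusted threshold was therefore stricter in the simulation, and these rates do not give the power of the comparison. Exact permutation tests used the 9 cold libraries. Alternatives were pseudocounts of 1 and 5 CPM, a filter of 5 CPM in 4 libraries, other scalings, library weights, the cold libraries alone, a batch term, fits within batches, replicate blocks and leaving out libraries; leaving out cold brown 1 and 5 together was chosen after seeing the data. The batches were inferred from values of rows at the floor. Across rows, deviations of libraries sharing a library number in the descriptions correlated at r = 0.186, 0.24, 0.109 and 0.37 over the 4 pairs. For those sharing a number in the titles, r was 0.186, 0.326, 0.097 and -0.087. By library number, cold beige 1 and 4 correlated best with their own partners, cold brown 1 and 5. Cold beige 2 and 3 both correlated best with cold brown 2, which is not their partner. Cold beige 1 and 4 also had the highest endothelial sums of their group (433 and 512 CPM), as did cold brown 1 and 5. Whether either numbering reflects a pairing is thus not settled.

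The members and the gene lists were chosen with earlier results of these data known. Named genes were 7 fixed ones, the 12 largest differences in each direction with both means at 1 CPM or more, the 8 largest in each direction with the other group under 1 CPM, up to 4 of each list per direction by moderated t, textbook markers of a list, and the 6 largest changes between cold and warm in each direction. Several others, among them Ryr1, Atp2a1, Mrpl42, Mrps36, Ndufb2, Suclg1, Psmb8, Psmb9, Irs1, Insr, Pde3a, Meg3, Hmox1, Twist2, Ifit3, Irf1 and Stat2, were chosen after their values were seen. A few genes that the rule selects are not reported here. Coordinates and promoters are from RefSeq tables of GRCm38.p6. Of the 11603 rows, 11253 were found there by symbol or synonym, and 8620 of the 11544 symbols had a promoter.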

Additional observations from a re-analysis of the deposited data

Results flagged for a closer look

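Of 428 groups of values looked at (214 named genes in cold beige and in cold brown), 22 held a library far from the others by Dixon's criterion at the 95% level, about the 5% that chance gives (1 in 20 groups). The lone values are in log2 CPM. Cold beige 1 was low for Bmp8b (3.30, with the others at 4.37 to 4.47) and high for Slc29a1 (4.07, with the others at 3.91 to 3.92). Cold beige 2 was high for Bcat1 (2.13, with the others at 0.90 to 1.10). Cold beige 3 was low for Lamc3 (3.18, with the others at 3.87 to 3.92) and Fbxo31 (6.77, with the others at 7.05 to 7.09) and high for Ffar2 (5.17, with the others at 4.57 to 4.65). Cold beige 4 was low for Hoxb3 (2.51, with the others at 2.83 to 2.88) and high for Klhl13 (3.74, with the others at 3.03 to 3.14) and Gfra1 (4.59, with the others at 3.35 to 3.50). Cold brown 1 was low for Ccnd2 (2.60, with the others at 2.96 to 3.07), Zic1 (3.80, with the others at 4.16 to 4.30), Abhd5 (8.72, with the others at 8.87 to 8.91) and Fgf10 (-3.57, with the others at -1.22 to -0.51). Cold brown 2 was low for Heyl (4.56, with the others at 5.14 to 5.21), Ano1 (6.85, with the others at 7.18 to 7.30), Gpx3 (9.24, with the others at 9.61 to 9.71) and Ifit3 (-5.64, with the others at -2.28 to -1.16). Cold brown 3 was high for Bcat1 (0.89, with the others at -0.84 to -0.59). Cold brown 4 was low for Mt2 (3.60, with the others at 4.31 to 4.59) and Ndufa2 (6.67, with the others at 7.01 to 7.14) and high for Lamc3 (6.65, with the others at 6.15 to 6.28). Cold brown 5 was high for Abcd2 (5.28, with the others at 4.77 to 4.91).

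The difference between beige and brown itself differed between cold and warm for 5477 rows by limma's interaction test. Among the 7 fixed genes, the cold difference minus the warm difference was 7.00 for Ucp1, 2.12 for Cidea, 1.29 for Ppargc1a, 3.84 for Elovl3, 3.30 for Dio2 and 2.95 for Lep, and for Adipoq it missed the threshold. The value for Elovl3 was 0.229 (adjusted p 0.204) with log2 of CPM plus 1 and -0.32 with log2 of CPM plus 5. The 6 largest in each direction among rows with all 4 group means at 1 CPM or more, Ucp1 included, were 5.97 for Perm1, 5.69 for Fabp3, 5.28 for Pkia, 5.05 for Acot11 and 5.05 for Col12a1, and -4.08 for Hopx, -4.07 for Adgrg2, -3.60 for Mt2, -3.48 for Wscd2, -2.87 for Lamc3 and -2.79 for Fkbp5.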

How the results depend on the processing

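Among 214 named genes and 24 alternatives, a gene called under either setting changed direction in 1 case, Hoxd3 with quantile normalization (-0.114), and, for the change between cold and warm, in Elovl3 with log2 of CPM plus 5 (-0.32); the cause was not tested. The call of 59 of the 214 changed under some alternative, of 27 of these only in fits within a batch. Within the first batch, which holds 2 libraries of each cold group, 3710 rows were called, 2340 higher and 1370 lower, and 1969 for the change between cold and warm; fewer samples enter that fit. With log2 of CPM plus 5, which shrinks low genes, 706 rows were called at 2-fold or more, 543 higher and 163 lower. Quantile normalization gave 1028 higher and 839 lower at 2-fold or more; the cause was not tested. With the library number as a replicate block, 6885 rows were called, 2098 of them at 2-fold or more, and 5305 for the change between cold and warm; with the title number as a replicate block, 7080 were called. Among the genes named, the replicate block by library number ended the calls of Bmp8b (adjusted p 0.0543) and Hoxb3 (0.0663) and changed no other. Leaving out 1 library at a time gave 6607 to 6966 calls, and without cold brown 1 and 5 there were 6486 (3756 higher, 2730 lower). Depth could not be assessed, so which low genes it limits is unknown.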
